A study of Mus musculus with 9 samples.

Results

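Complement is the cascade of plasma and tissue proteins that tags particles, debris and cells for uptake. The account here covers 8 of its genes, out of the 13890 mouse genes with counts in these hearts: C1qa, C1qb and C1qc, C1ra, C4b, C3, Serping1 and C3ar1. They were chosen by name and by no threshold on a measured value, with earlier results of these data known. All 8 had counts in every library and all 8 passed the filter on low counts. The libraries came from the hearts of 9 male NSG mice (NOD background, scid, IL2Rg null), which lack T, B and natural killer cells and were 8 weeks old at surgery. S was the sham group, given saline into the spleen (animals 2, 3 and 5). T was labelled as hosts of HCT116, a human colorectal cancer line injected into the spleen so that it spreads to the liver (animals 11, 12 and 15). A + T was labelled as hosts of the same cells that also received ACVR2B/Fc, a soluble decoy of the activin receptor type 2B, each week at 10 mg/kg (animals 20, 21 and 22). By these labels, T vs. S would ask what hosting the tumour does to the heart, and A + T vs. T what the decoy receptor changes in hosts. The label of T did not pass the check given below. No library was labelled as the heart of a sham mouse given ACVR2B/Fc.

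Libraries summed to 12392222 to 19732471 counts, so that 3 counts, the limit that a count of 0 allows, corresponded to 0.152 to 0.242 CPM (counts scaled to the total of each library). These floors cover counting error only. Levels are given below as CPM scaled by the trimmed mean of M-values (TMM). The labelled tissue was checked with 6 cardiomyocyte genes, all of them expressed, whose summed level ran from 38679 to 61039 CPM. No lymphocyte gene of the list of 6 had a row with counts. The libraries labelled T did not match the study's column for their label. Over 429 genes of the supplementary list of the study, which are not independent replicates, fold changes of T vs. S computed here had a Pearson correlation of 0.275 with the column for tumour vs. sham and of 0.9999 with the column for ACVR2B/Fc vs. sham. Fold changes of A + T vs. S had the sign of the summed columns for tumour vs. sham and for ACVR2B/Fc with tumour vs. tumour in 429 of the 429 genes. The tumour group cancels in that sum, so it checks S and A + T only. Whether the T libraries or the columns of the study carry the wrong label cannot be told apart here. A direction given for T, in A + T vs. T as in T vs. S, is therefore that of the libraries labelled T, and whether the tumour or the decoy receptor was present in those mice cannot be told apart here. Animals 12 and 22 also stood apart, since 3 airway and lung genes summed to 109 CPM in animal 12 and 1435 CPM in animal 22, against 0.287 to 2.28 CPM in the other 7 libraries.

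In the classical pathway, C1q recognises antibody on a surface, or certain dying cells, and its A, B and C chains are encoded by C1qa, C1qb and C1qc. C1r, encoded by C1ra, is the protease that C1q carries and that activates C1s. C1s then cleaves C4, encoded by C4b, and C2 to form a convertase that cleaves C3, the component on which all complement routes converge. The C1 inhibitor encoded by Serping1 blocks C1r and C1s, and C3ar1 encodes the receptor for the C3a fragment. Liver makes most circulating complement, whereas C1q is made chiefly by macrophages and dendritic cells, and fibroblasts of solid organs express C1r, C1s, C3 and Serping1. Mice of the NOD background lack a functional C5, so the terminal steps of the cascade are incomplete in NSG mice.

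The C1q genes lie side by side on the minus strand of chromosome 4 (GRCm38, mm10), with C1qa from 136895917 to 136898803, C1qc from 136889804 to 136893065 and C1qb from 136880129 to 136886187. The gaps between neighbours were 2851 and 3616 bases. C4b and C3 lie on the minus strand of chromosome 17, at chr17:34728380-34743882 and chr17:57203970-57228136. C1ra is on the plus strand at chr6:124512405-124523443, C3ar1 on the minus strand at chr6:122847138-122856161 and Serping1 on the minus strand at chr2:84765387-84775444. For 5 of the 8 members, a RefSeq promoter of GRCm38.p6 was matched by symbol, reaching from 250 bases before to 50 bases after the start. The RefSeq start differed from the end of the GENCODE gene given above by 13 bases for C1qb and 151 bases for C1qc, and not for C3. Only bases before both starts are printed, 250 for C1qb and 99 for C1qc, because those genes moved together, and 250 for C3, which followed another pattern. Capitals mark the motifs found on either strand, out of GAGGAA (a core of PU.1, a factor of macrophages), TTGCNNAA (C/EBP, a family active in inflammation), TTCNNNGAA (STAT) and TGANTCA (AP-1).
C1qb, chr4:136886201-136886450, minus strand: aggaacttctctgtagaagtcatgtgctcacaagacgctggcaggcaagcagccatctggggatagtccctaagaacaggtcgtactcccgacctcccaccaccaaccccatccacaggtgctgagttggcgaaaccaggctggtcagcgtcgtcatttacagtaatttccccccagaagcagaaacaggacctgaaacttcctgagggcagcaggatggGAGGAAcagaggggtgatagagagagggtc
C1qc, chr4:136893066-136893164, minus strand: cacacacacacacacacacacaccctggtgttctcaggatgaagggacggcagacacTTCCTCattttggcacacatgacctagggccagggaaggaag
C3, chr17:57228137-57228386, minus strand: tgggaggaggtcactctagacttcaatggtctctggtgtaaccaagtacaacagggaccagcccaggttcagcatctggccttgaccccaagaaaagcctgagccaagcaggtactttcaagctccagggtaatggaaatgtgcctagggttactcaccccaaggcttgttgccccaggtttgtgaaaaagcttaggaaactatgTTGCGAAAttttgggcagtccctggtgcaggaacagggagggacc
Counted from the GENCODE start, the PU.1 core began at −43 in C1qb and, on the opposite strand, at −42 in C1qc (−30 and −193 from the RefSeq start). The C/EBP site began at −45 in C3 from either start. C3ar1 had an AP-1 site at −18 (−22 from the RefSeq start), and C1ra had a C/EBP, a STAT and a PU.1 match, all after its start. Of 32851 promoters of the same length, 28.3% held the PU.1 core, 10.8% the C/EBP site, 8.3% the STAT site and 7.81% the AP-1 site. A match describes these letters and is not evidence of binding.

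Per length, Serping1 and C3 stood at the top of the members and C3ar1 at the bottom. On the deposited log2 scale, which is scaled by gene length, the level over all 9 libraries averaged 6.56 for Serping1, 5.85 for C3, 5.78 for C1qa, 5.55 for C1qc, 5.28 for C1qb, 3.49 for C4b, 3.11 for C1ra and 1.35 for C3ar1. In S, the order was Serping1 (6.74 ± 0.08), C3 (5.62 ± 0.11), C1qa (5.54 ± 0.06), C1qc (5.26 ± 0.09), C1qb (4.93 ± 0.17), C1ra (3.16 ± 0.12), C4b (2.50 ± 0.31) and C3ar1 (1.19 ± 0.14; SD, n = 3 for each). C3 and C1qa were neighbours whose S levels lay within the spread of C3. In the libraries labelled T, C4b (4.01 ± 0.68) stood above C1ra (2.96 ± 0.54). In A + T, C1qa (6.09 ± 0.10), C3 (6.03 ± 0.63) and C1qc (5.93 ± 0.06) did not differ beyond the spread of C3.

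C4b was the member with the largest change in T vs. S, and C1q genes were highest in A + T. By edgeR's quasi-likelihood test over 13364 genes, with adjustment by Benjamini and Hochberg over all of them and an adjusted P under 0.05 as the call, 2 of the 8 members were higher in T vs. S (C4b and C1qb) and 0 were lower, where 21.2% of all genes were called and 10.3% were called higher. At an unadjusted P under 0.05, 3 were higher (C1qc in addition) and 1, Serping1, was lower, and DESeq2 with adjustment also called Serping1 lower. A + T vs. T gave 3 of 8 higher (C1qa, C1qc and C3ar1), against 5.88% of all genes called and 3.09% called higher. A + T vs. S gave 4 of 8 higher (C1qa, C1qb, C1qc and C4b), against 8.31% called and 4.67% called higher. No member was lower in either at an unadjusted P under 0.05, by edgeR or DESeq2. The median log2 fold change of the members was 0.19, 0.29 and 0.61 in these 3 comparisons, and that of all genes tested was near 0 (−0.0038, 0.0098 and 0.0034). The comparisons share libraries, and the members are not replicates of a condition. Animals 12 and 22 were then left out together, a choice made after the data were seen. T vs. S then gave 3 members called (C4b higher, Serping1 and C1ra lower). A + T vs. T gave 3, and A + T vs. S gave 5 (C3ar1 in addition). The share of all genes called was not computed for that fit.

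**Figure D1:**
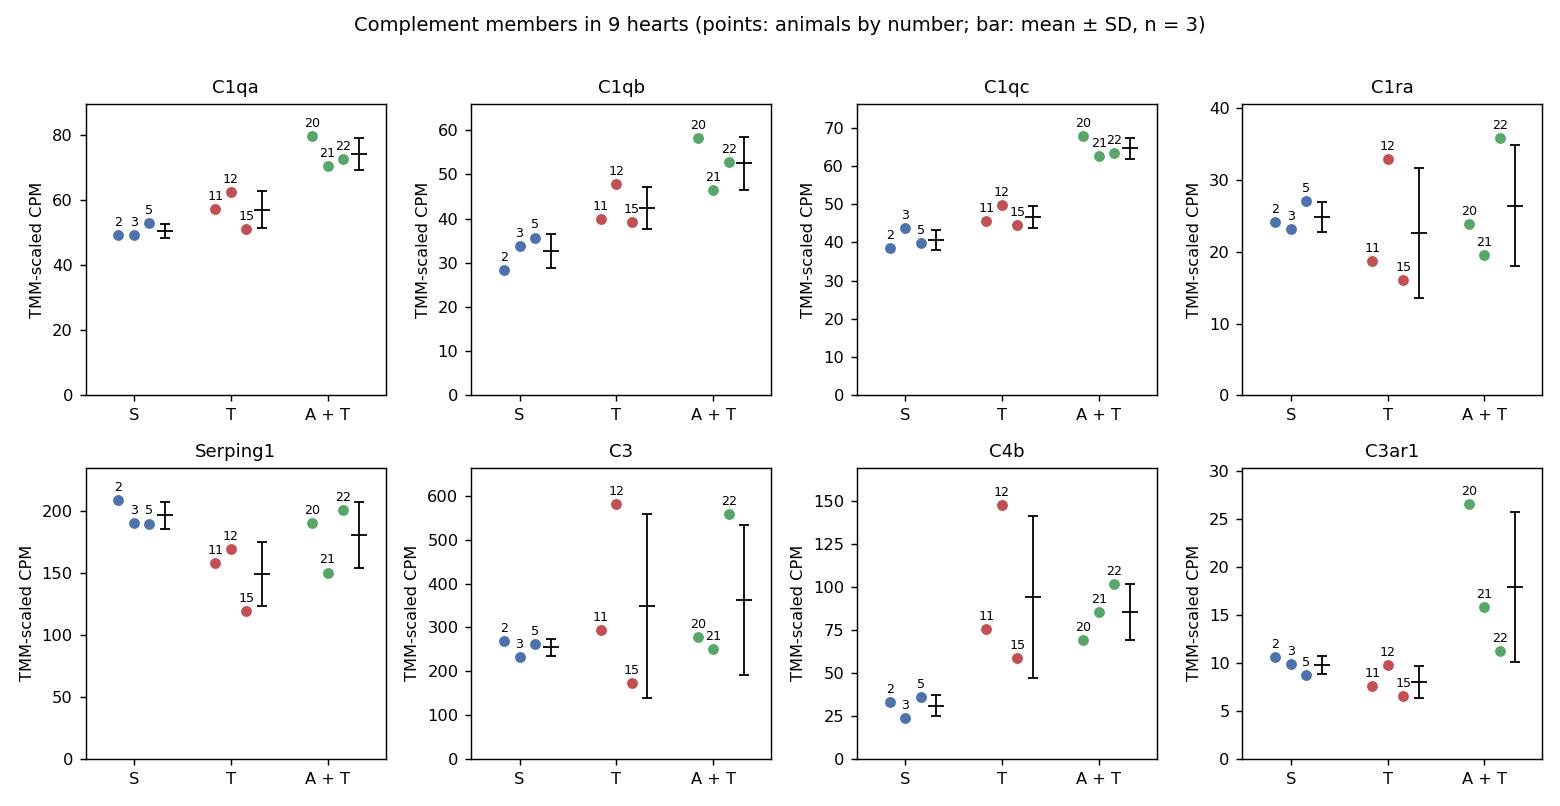
TMM-scaled CPM (y axes, each from 0) of the 8 complement members in S, T and A + T; each point is the heart of 1 animal with its number, and the bar beside each group is its mean ± SD (n = 3). C1qa, C1qb and C1qc are highest in A + T, C4b is above S in every T and A + T library, and C3 and C1ra are high in animals 12 and 22.

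The recognition subunits came first. C1qa stood at 49.4, 49.2 and 52.9 CPM in S, at 57.3, 62.7 and 51.2 in the libraries labelled T, and at 80.0, 70.5 and 72.6 in A + T. Every A + T library was above every other library, whereas T and S overlapped in animal 15. The means were 50.5 ± 2.09, 57.1 ± 5.72 and 74.4 ± 4.97 CPM (SD, n = 3). C1qa was 1.47-fold higher in A + T vs. S, a log2 fold change of 0.56 (standard error, SE, 0.09, adjusted P = 0.00726 by edgeR), and 1.30-fold higher in A + T vs. T (0.38, SE 0.09, adjusted P = 0.0362). In T vs. S the log2 fold change was 0.18 (95% interval −0.02 to 0.38, adjusted P = 0.180).

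C1qb, the B chain, stood at 28.3, 33.7 and 35.7 CPM in S, at 39.9, 47.9 and 39.3 in T, and at 58.3, 46.4 and 52.8 in A + T. Both T and A + T lay above S in every library, and T and A + T overlapped. C1qb was the C1q gene called in T vs. S, 1.30-fold higher (log2 fold change 0.38, SE 0.12, adjusted P = 0.0469 by edgeR), and it was 1.61-fold higher in A + T vs. S (0.69, SE 0.12, adjusted P = 0.0101). Its log2 fold change in A + T vs. T was 0.31 (95% interval 0.04 to 0.57, adjusted P = 0.164). The call in T vs. S held in 3 of the 9 fits that left out 1 animal each, those without an A + T animal, with a highest adjusted P of 0.155 without animal 12.

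C1qc, the C chain, stood at 38.6, 43.7 and 39.8 CPM in S, at 45.6, 49.9 and 44.5 in T, and at 67.8, 62.5 and 63.4 in A + T. The groups did not overlap in any pair, with S lowest and A + T highest. It was 1.59-fold higher in A + T vs. S (log2 fold change 0.67, SE 0.08, adjusted P = 0.00231 by edgeR) and 1.38-fold higher in A + T vs. T (0.47, SE 0.08, adjusted P = 0.0115). In T vs. S the value was 0.20 (SE 0.08, adjusted P = 0.106). All 3 C1q genes were called in A + T vs. S in 9 of 9 fits that left out 1 animal each, with log2 fold changes of 0.50 to 0.60 for C1qa, 0.60 to 0.78 for C1qb and 0.63 to 0.72 for C1qc. With library totals in place of TMM, the call of C1qa in A + T vs. S was lost. Against T, the A + T call of C1qc was lost without animal 11 (adjusted P = 0.0604), and that of C1qa held in 2 of 9 fits, without animal 12 or animal 22, with its highest adjusted P, 0.120, also without animal 11.

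The 3 C1q genes, which encode the subunits of 1 complex, kept close ratios to each other. The ratio of C1qb to C1qa counts ran from 0.573 to 0.766 over the 9 libraries and that of C1qc to C1qa from 0.753 to 0.888. C1qb to C1qa was higher in every T library than in S (difference of log2 ratios 0.21), and C1qc to C1qb was higher in every A + T library than in T (0.16). In both cases the two-sided exact permutation test gave P = 0.1, the smallest that 3 animals against 3 allow, and 0.45 after adjustment over the 9 ratios compared. Over the 9 libraries, which include the group differences, the Pearson correlation of log2 CPM was 0.931 for C1qa with C1qb, 0.961 for C1qa with C1qc and 0.916 for C1qb with C1qc. Values this high were not confined to the subunits, since Ctss, outside the complex, reached 0.968 with C1qa.

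C1q is a product of macrophages, and a list of 8 macrophage genes moved in the same comparisons. All 8 had counts, and the defining markers Adgre1 (F4/80), Csf1r and Cd68 were expressed in every group. The summed level of the list was 138 to 155 CPM in S, 136 to 161 in T and 190 to 253 in A + T. Of the 8 genes, 6 were called higher in A + T vs. S, where 4.67% of all genes were. In A + T vs. T, 4 were called higher (1 without animal 11), where 3.09% of all genes were. In T vs. S, 1, Fcgr1, was called higher, where 10.3% of all genes were. Csf1r, the receptor for the growth factor of macrophages, had a log2 fold change of 0.78 in A + T vs. S (adjusted P = 0.00860 by edgeR) and of −0.13 in T vs. S (adjusted P = 0.507). Mrc1, the mannose receptor of macrophages, had values below 0, at −0.36 in A + T vs. S (adjusted P = 0.194) and −0.31 in A + T vs. T (adjusted P = 0.289). C1qa per unit of the macrophage list was 0.316 to 0.423 over all 9 libraries. It averaged about the same in A + T and S, with a fold of 1.01 (two-sided exact permutation P = 1). C1qb per unit of the list was 0.186 to 0.244 in S and 0.262 to 0.297 in T, with no overlap (fold 1.30, two-sided exact permutation P = 0.1, and 0.4 after adjustment over 24 such ratios). In whole-heart RNA, more macrophages and more C1q RNA per macrophage cannot be told apart.

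**Figure D2:**
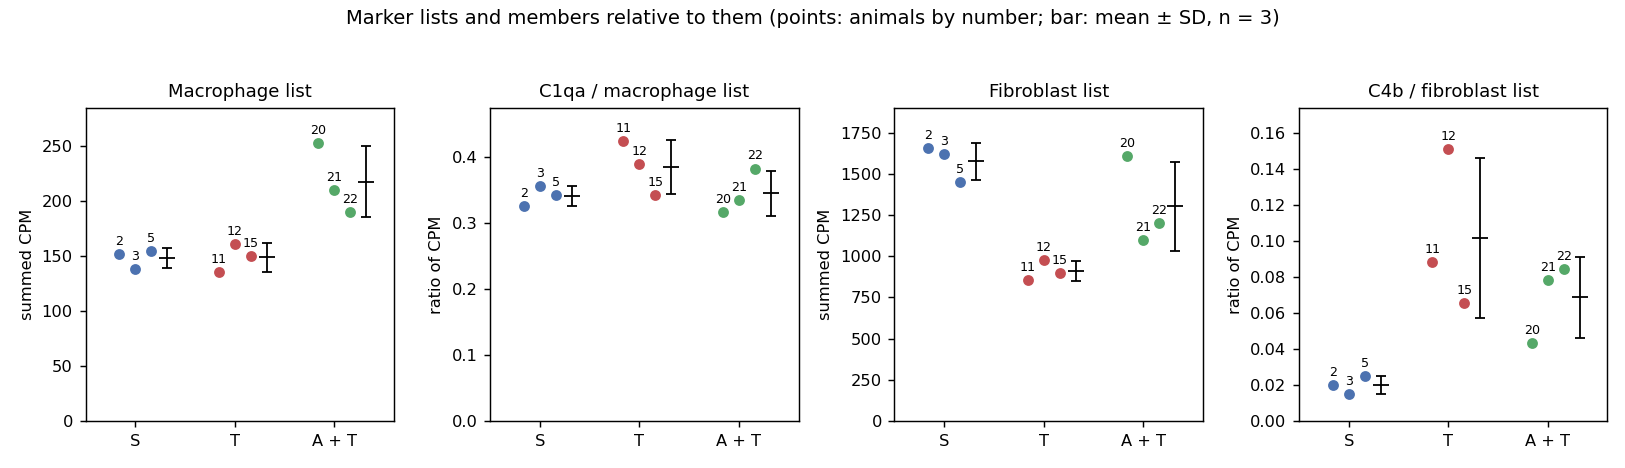
From left to right, the summed CPM of the macrophage list, C1qa divided by that sum, the summed CPM of the fibroblast list, and C4b divided by that sum (y axes from 0), with 1 point per animal and the mean ± SD of each group (n = 3). The macrophage sum is highest in A + T while its C1qa ratio stays between 0.316 and 0.423, and the C4b ratio is above S in every T and A + T library.

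C3ar1, the receptor for C3a that myeloid cells carry, was higher in A + T. It stood at 10.6, 9.84 and 8.75 CPM in S, at 7.62, 9.80 and 6.55 in T, and at 26.6, 15.9 and 11.3 in A + T. Every A + T library exceeded every other library, but animal 20 was far above animal 22. The gene was 2.22-fold higher in A + T vs. T (log2 fold change 1.15, SE 0.28, adjusted P = 0.0390 by edgeR), whereas A + T vs. S gave 0.88 (SE 0.27, adjusted P = 0.0715) and T vs. S −0.28 (SE 0.28, adjusted P = 0.518). The call in A + T vs. T held in 1 of 9 fits that left out 1 animal each, the one without animal 22. The log2 fold change was 0.75 without animal 20, 1.40 without animal 22, and 1.58 without animals 12 and 22 together (adjusted P = 0.00522). Per unit of the macrophage list, C3ar1 was 0.044 to 0.061 in T and 0.059 to 0.105 in A + T, an overlap (two-sided exact permutation P = 0.2).

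C4b rose in both groups other than S. It stood at 33.3, 23.9 and 35.9 CPM in S, at 75.8, 148 and 58.9 in T, and at 69.4, 85.7 and 102 in A + T. No T or A + T library overlapped S, while T and A + T overlapped and animal 12 was highest. C4b was 3.06-fold higher in T vs. S (95% interval 1.91 to 4.89, log2 fold change 1.61, SE 0.31, adjusted P = 0.00479 by edgeR) and 2.77-fold higher in A + T vs. S (1.47, SE 0.30, adjusted P = 0.0190). The difference of A + T vs. T was −0.14 on the log2 scale, with a 95% interval from −0.79 to 0.51 (adjusted P = 0.815). In T vs. S the call held in 9 of 9 fits that left out 1 animal each, at 1.13 without animal 12 to 1.86 without animal 15. The call in A + T vs. S was lost without animal 2 or animal 3 of S, with a highest adjusted P of 0.0833. Without animals 12 and 22 together, the log2 fold changes were 1.14 in T vs. S and 1.33 in A + T vs. S, both called.

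Fibroblast genes moved otherwise than C4b. All 7 genes of a fibroblast list, Pdgfra, Col1a1, Col1a2, Dcn, Dpt, Lum and Tcf21, were called lower in T vs. S (21.2% of all genes called). In A + T vs. T, 5 of 7 were called higher (5.88% of all genes called, 3.09% higher). In A + T vs. S, where 8.31% of all genes were called by edgeR, 0 were called by edgeR or DESeq2 (1 at an unadjusted P under 0.05). Without animal 11, 0 of the 7 passed the adjustment in A + T vs. T and 6 had an unadjusted P under 0.05. Their sum was 1448 to 1656 CPM in S, 858 to 977 in T and 1097 to 1608 in A + T. C4b per unit of this list was 0.015 to 0.025 in S, 0.065 to 0.151 in T and 0.043 to 0.085 in A + T, a fold of 4.92 in T vs. S and 3.39 in A + T vs. S (two-sided exact permutation P = 0.1 for each, 0.4 after adjustment over 24 ratios). Reads of C4b are partly shared with its copy C4a. Of the 75-base windows of the C4b transcript, 23.5% also occur in C4a. Only uniquely mapped reads were counted, so read pairs that lie wholly in such windows may be missing from the C4b count. The effect on its fold changes was not tested. C4a had 1.54 CPM on average.

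C3 was high in 1 animal of T and 1 of A + T. It stood at 269, 232 and 263 CPM in S, at 293, 582 and 174 in T, and at 278, 250 and 559 in A + T. The groups overlapped, and animals 12 and 22 held the highest values. The log2 fold change was 0.46 in T vs. S (95% interval −0.42 to 1.34, adjusted P = 0.440 by edgeR), 0.51 in A + T vs. S (−0.37 to 1.39, adjusted P = 0.445) and 0.05 in A + T vs. T (−0.82 to 0.92, adjusted P = 0.958). Without animal 12 the value in T vs. S was −0.12, and without animal 22 that in A + T vs. S was 0.06 and that in A + T vs. T −0.41. Per unit of the fibroblast list, which fell in T, C3 was 0.143 to 0.181 in S and 0.193 to 0.596 in T.

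C1ra, the C1r protease, followed C3 by animal. It stood at 24.2, 23.2 and 27.1 CPM in S, at 18.7, 32.9 and 16.1 in T, and at 23.9, 19.5 and 35.8 in A + T. Animals 12 and 22 were again highest, and the groups overlapped. No comparison was called, with log2 fold changes of −0.12 in T vs. S (95% interval −0.71 to 0.47), 0.22 in A + T vs. T (−0.37 to 0.81) and 0.09 in A + T vs. S (−0.49 to 0.68). Without animals 12 and 22 together, C1ra fell in T vs. S, by 0.49 on the log2 scale (SE 0.13, adjusted P = 0.0161 by edgeR). Of the 75-base windows of C1ra, 42.4% also occur in C1rb or the pseudogene Gm18840. Read pairs that lie wholly in such windows may be missing from its count, and the effect on its fold changes was not tested.

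**Figure D3:**
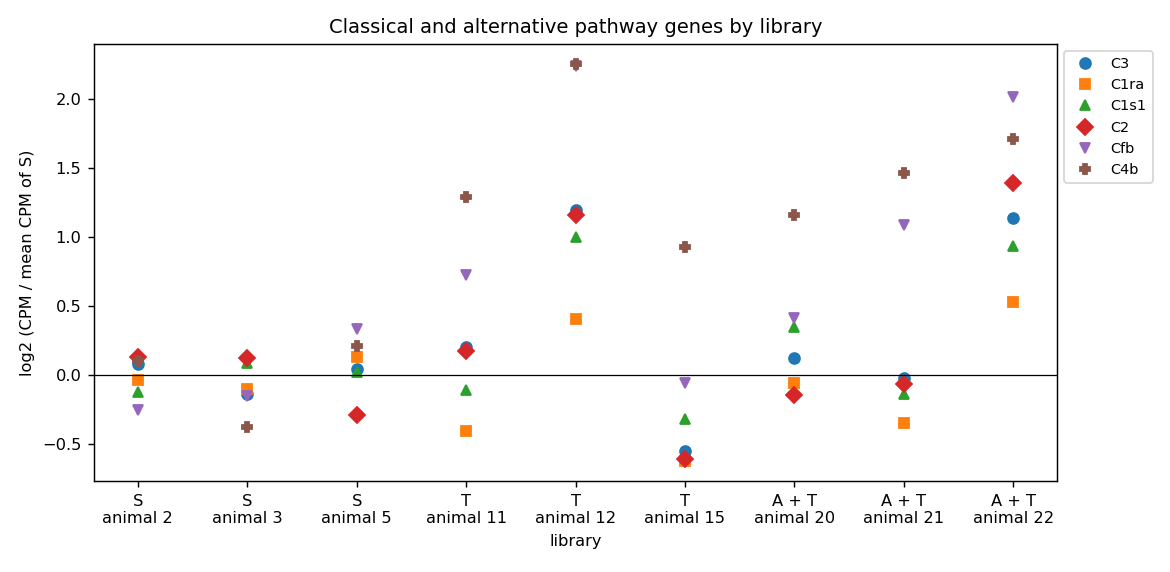
The log2 ratio of the CPM of each library to the mean CPM of S (y axis) for C3, C1ra, C1s1, C2, Cfb and C4b in the 9 libraries (x axis). C3, C1ra, C1s1, C2 and Cfb are high in animals 12 and 22 (the Cfb point of animal 12 lies under that of C4b), whereas C4b is above 0 in all T and A + T libraries.

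The same 2 animals were high for C1s1, C2 and Cfb, which no comparison called at an adjusted P under 0.05. C1s1, the C1s protease, was at 73.7 CPM in animal 12 and 70.4 in animal 22 against 29.6 to 47.0 in the other 7 libraries. C2, the partner of C4 in the classical convertase, was at 15.6 and 18.3 CPM against 4.58 to 7.87. It averaged 8.92 CPM and was named after its values were seen. Cfb, its counterpart in the alternative pathway, was at 23.9 and 20.4 CPM against 4.26 to 10.8. Cfb passed the thresholds of the study in T vs. S (2.50-fold, unadjusted P = 0.0349 by edgeR) and in A + T vs. S (2.52-fold, unadjusted P = 0.0338). Without animals 12 and 22 together, its log2 fold change was 0.44 in T vs. S and 0.80 in A + T vs. S. The adjusted P by edgeR was then 0.288 and 0.0954. In these animals a mesothelium list also summed to 115 and 176 CPM, against 84.6 to 92.8 in S and 31.5 to 62.6 in the other T and A + T libraries. An atrial list was highest in animal 12 (4551 CPM), against 2907 to 2969 CPM in S and 793 to 2003 in the other T and A + T libraries. The part of this atrial difference in the group comparisons was not tested. Adipocyte genes were at 28.4 CPM in animal 12 against 0.359 to 9.47 elsewhere, and neutrophil genes were at 170 CPM in animal 22 against 1.66 to 17.8. Of the 7 airway and lung genes, 3 had counts. The part of these genes in the C3, C1ra, C1s1, C2 and Cfb values was not tested.

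Serping1, the C1 inhibitor, was lower in the libraries labelled T, without passing the adjustment. It stood at 209, 190 and 190 CPM in S, at 158, 169 and 120 in T, and at 190, 150 and 201 in A + T. Every T library was below every S library, and A + T overlapped both. The log2 fold change was −0.40 in T vs. S (95% interval −0.71 to −0.09, adjusted P = 0.0671 by edgeR), 0.28 in A + T vs. T (−0.03 to 0.58, adjusted P = 0.271) and −0.12 in A + T vs. S (−0.43 to 0.19, adjusted P = 0.616). It was called lower in T vs. S in 2 of 9 fits that left out 1 animal each, without animal 12 or animal 22, and without both together (−0.49, adjusted P = 0.0201). Per unit of the fibroblast list, which fell further, Serping1 was 0.117 to 0.131 in S and 0.133 to 0.184 in T. The fold was 1.30 (two-sided exact permutation P = 0.1, and 0.4 after adjustment over 24 ratios).

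**Figure D4:**
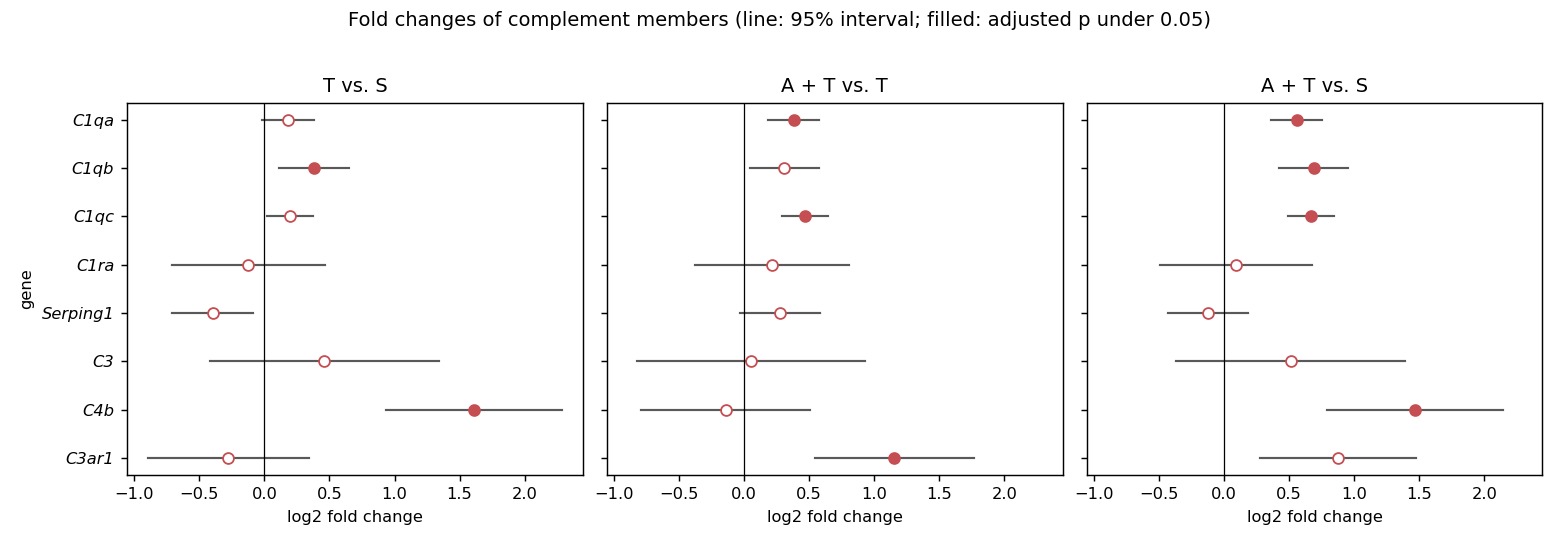
Log2 fold changes of the 8 complement members (x axes), with 1 panel per comparison fitted by edgeR, and with 95% intervals as lines and filled points for an adjusted P under 0.05. The intervals of C1ra and C3 span 0 in all 3 panels, C4b lies near 1.5 in both comparisons with S, and C3ar1 lies at 1.15 in A + T vs. T.

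Counted without a test, 3 members were higher and 1 lower in every T library than in S (42.6% of all genes did not overlap between these groups, 21.2% higher and 21.5% lower). Against T, 3 were higher in every A + T library (25.4% of all genes without overlap, 12.3% higher), and against S, 5 were (32.4%, and 16.0% higher). At the thresholds of the study, a change of at least 1.5-fold with an unadjusted P under 0.05, the members called were C4b in T vs. S (14.2% of all genes passed in either direction), C3ar1 in A + T vs. T (8.10%), and C1qb, C1qc, C4b and C3ar1 in A + T vs. S (8.91%), all of them higher.

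The rest of the pathway was read from a list of 48 further complement genes, of which 35 had counts and 31 were tested. The libraries labelled T had 3 genes that rose and 5 that fell against S, where 21.2% of all genes were called. A + T had 5 that rose and 2 that fell against T (5.88% of all genes called), and 5 that rose and 1 that fell against S (8.31%). The median log2 fold change of the list was 0.20, 0.35 and 0.39. Among the initiators of the lectin pathway, Masp1, a protease, rose in T vs. S and fell in A + T vs. T (0.35 and −0.70), with means of 27.0 ± 1.95 CPM for S, 34.5 ± 2.12 for T and 21.3 ± 2.85 for A + T (SD, n = 3). Colec11, a collectin, fell in T vs. S from 15.8 ± 1.33 to 8.64 ± 2.12 CPM. Cfp, properdin, which stabilises the alternative convertase, rose in A + T vs. S from 8.53 ± 2.05 to 17.0 ± 3.76 CPM. C1rb, the copy of C1ra, rose there from 0.888 to 1.98 CPM, but in 1 of 9 fits that left out 1 animal each. The call of Masp1 in T vs. S was lost without animal 2, 3, 5, 11, 12 or 21, and that of Cfp without animal 2, 3 or 21.

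C7, the terminal component that anchors the membrane attack complex, was called in all 3 comparisons. It stood at 43.1, 36.6 and 47.1 CPM in S, at 11.9, 14.0 and 11.7 in T, and at 22.3, 25.0 and 23.2 in A + T. The groups did not overlap in any pair. It fell in T vs. S by 1.75 on the log2 scale (SE 0.12, adjusted P = 2.87e-05 by edgeR), rose in A + T vs. T by 0.90 (SE 0.12, adjusted P = 0.00397), and fell in A + T vs. S by 0.85 (SE 0.11, adjusted P = 0.00324). All 3 calls held in 9 of 9 fits that left out 1 animal each.

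Regulators moved in both directions in T vs. S. Clu, clusterin, which binds the forming attack complex, was at 787, 751 and 829 CPM in S, at 1524, 2218 and 1271 in T, and at 994, 775 and 849 in A + T. It rose in T vs. S by 1.08 on the log2 scale (SE 0.18, adjusted P = 0.00260 by edgeR) and fell in A + T vs. T by 0.94 (SE 0.18, adjusted P = 0.0186). Vtn, vitronectin, fell in T vs. S from 14.7 ± 2.97 to 5.81 ± 1.23 CPM and Cd55, decay-accelerating factor, from 12.2 ± 0.591 to 5.73 ± 1.28. Cd59a, a membrane inhibitor of the attack complex, rose from 90.1 ± 6.51 to 112 ± 4.11 CPM (SD, n = 3 for each). Leaving out animal 11 or 21 ended the call of Clu in A + T vs. T, and leaving out animal 2, 3 or 11 that of Cd59a. Cd59b, the copy of Cd59a, rose in A + T vs. T at an adjusted P of 0.0496 by edgeR, a call made in none of the 9 fits that left out 1 animal each. Of the genes at 10 CPM or more on average, Cr1l, a membrane regulator, C1qbp, Colec12, C1s1, Cfb and Itgam were called in no comparison. Itgam nevertheless had a log2 fold change of 2.20 in A + T vs. S (SE 0.63, adjusted P = 0.0573 by edgeR). Its level was 10.9, 60.3 and 23.5 CPM in A + T against 5.69, 4.62 and 10.6 in S, and DESeq2 called it.

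Among receptors, Vsig4, the complement receptor of resident macrophages, changed most. It stood at 3.92, 8.12 and 8.31 CPM in S, at 3.47, 6.30 and 3.93 in T, and at 45.7, 34.2 and 33.4 in A + T. All A + T libraries lay far above the others. It was 8.18-fold higher in A + T vs. T (log2 fold change 3.03, SE 0.29, adjusted P = 0.00248 by edgeR) and 5.59-fold higher in A + T vs. S (2.48, SE 0.28, adjusted P = 0.00189), called in 9 of 9 fits that left out 1 animal each. C5ar1, the C5a receptor, rose in A + T vs. T by 1.03 and in A + T vs. S by 0.91 on the log2 scale, and Itgb2, the beta chain of complement receptors 3 and 4, rose in A + T vs. S by 1.96. The calls of C5ar1 were lost without animal 11, 12 or 20 against T and without animal 2, 3 or 20 against S, and that of Itgb2 without animal 2 or 3. Cd93, a receptor of endothelium, fell in T vs. S by 1.16 and rose in A + T vs. T by 0.85, while a list of 5 endothelial genes summed to 709 to 836 CPM in S, 443 to 554 in T and 558 to 662 in A + T. The part of these cell type markers in the receptor values was not tested.

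**Figure D5:**
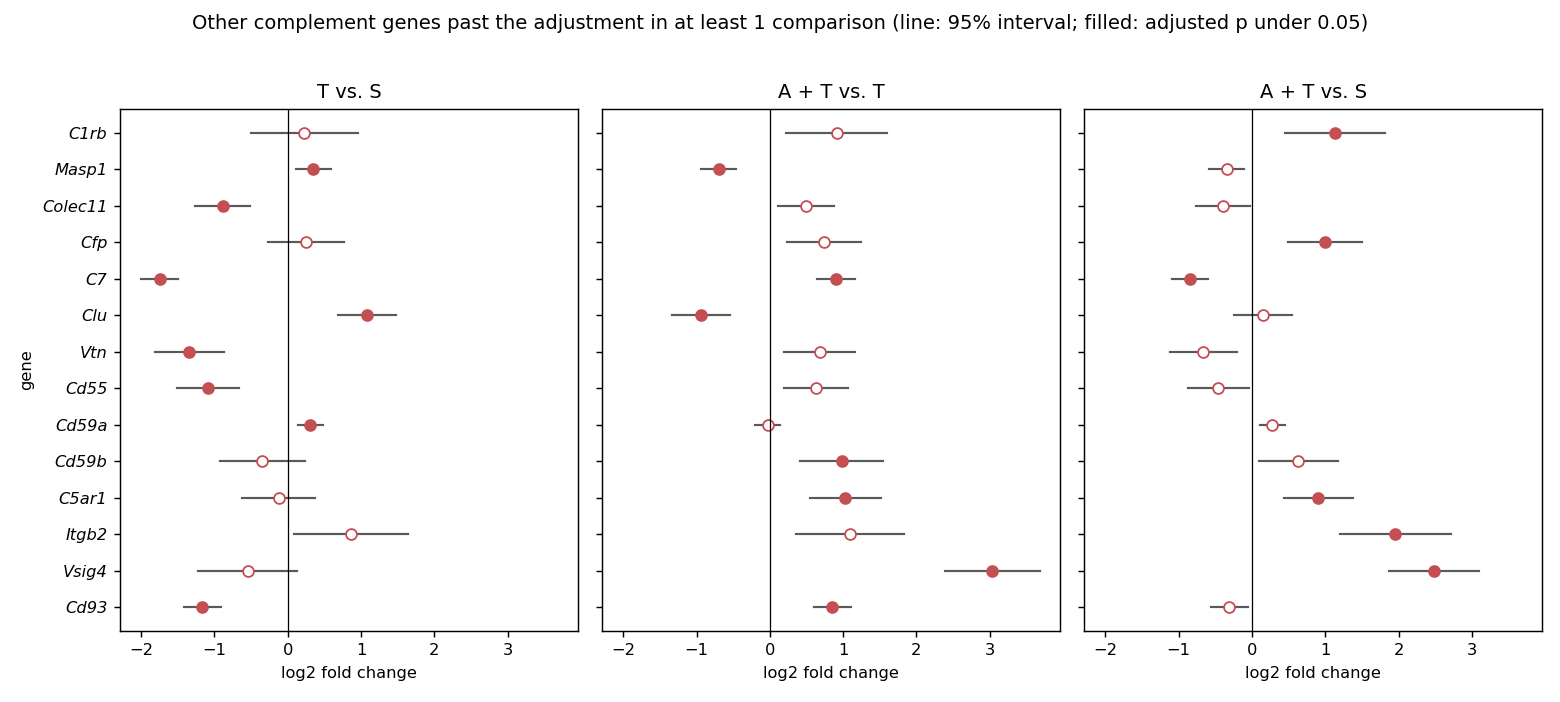
Log2 fold changes (x axes) in the 3 comparisons of the 14 other complement genes that passed the adjustment in at least 1 of them, with 95% intervals as lines and filled points for an adjusted P under 0.05 by edgeR. Vsig4 is farthest to the right in both comparisons of A + T, and C7 is farthest to the left in both comparisons with S.

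The genes most like 4 of the members were ranked by the Pearson correlation of log2 CPM over the 9 libraries, among 8570 genes with at least 10 CPM on average. These correlations are descriptions and hold the group differences as well as the differences between animals. For C1qa they were Ctss (0.968), C1qc (0.961), Gypc (0.950), Cd68 (0.936) and Birc3 (0.934), of which Ctss encodes cathepsin S and Cd68 is a macrophage marker. For C3ar1 they were Apobec1 (0.930), Adgre1 (0.923), Rnf207 (0.915), Csf1r (0.910) and Sirpa (0.884), of which Adgre1 and Csf1r belong to the macrophage list. For C3 they were Frmd4b (0.969), Net1 (0.965), Ptpn13 (0.945), C1s1 (0.933) and Bet1l (0.923). For C4b they were Dek (0.986), 1600012H06Rik (0.967), Tcap (0.950), 4833420G17Rik (0.946) and Tbc1d17 (0.944), with no complement gene among them.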

How the data were processed

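The groups and animal numbers came from the sample labels. The authors isolated total RNA from frozen hearts and read mRNA libraries as paired ends of 75 bases. Per the paper's methods, STAR placed the reads on mm10, and featureCounts counted those mapped uniquely, by strand and with a mapping quality of at least 10, on each RefSeq gene. The deposited values were raw counts per gene, and the authors also deposited log2 values, whose difference from log2 CPM was constant within a gene (median SD 0.00199), as for scaling by length. The tool that made them is not given in the sources used here, although the submitters' processing notes name edgeR, STAR and FastQC. RNA isolation and sequencing were done at one time for all hearts, so no batch was modelled. Rows that were wholly blank, with neither a gene nor a value (3443), stayed out, and the ribosomal gene Rn45s took 4.57% to 19.6% of a library's counts.

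Counts of all 9 libraries were fitted together with edgeR 4.0.16 in R 4.3.3 (TMM, glmQLFit and glmQLFTest), after genes below 0.5 CPM in more than 4 libraries were removed, which left 13364. P-values were adjusted by the method of Benjamini and Hochberg. The labels number the animals, so each library was counted as 1 animal. Replicates differed by more than sampling noise (chi-square per gene at least 7.48). Alternatives were DESeq2 1.42.0, limma 3.58.1 on the deposited log2 values, other scalings and filters, fits of 2 groups, and each animal left out. Fits without Rn45s and without animals 12 and 22 were added after the data were seen. The fits were tested on simulated data. Ratios were compared with two-sided exact permutation tests (scipy 1.17.1), whose smallest P is 0.1. C1ra and C4b share reads with copies, from the GENCODE M21 transcripts. The members and lists were chosen with earlier results of these data known. All 8 members were named, as were the other pathway genes that passed an adjusted P of 0.05 or averaged 10 CPM, and the 5 genes most correlated with C1qa, C3, C4b and C3ar1. A supplementary table of fold changes by the authors was used to check the labels and for no result. Tested pathway genes that met neither rule were counted and not named, apart from C2 and C4a. C2 was named after its values were seen, and C4a as the copy of C4b. A further pathway gene was left out of the list and is not reported here.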

Additional observations from a re-analysis of the deposited data

How the results depend on the processing

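The median log2 fold change of all genes stayed within 0.0559 of 0 under every scaling. The share of all genes called was computed for the main fit only, so the counts below have no such share beside them. The members called in T vs. S numbered 1 (C4b) with upper-quartile scaling, with library totals and at the thresholds of the study, and 1 to 3 when 1 animal was left out. In A + T vs. T they numbered 1 with library totals, in the fit of those 2 groups and at the thresholds of the study, and 0 to 3 when 1 animal was left out. The 0 came without animal 11 of T, where 3 members kept an unadjusted P under 0.05 by edgeR. A + T vs. S gave 3 members with library totals (without C1qa), 5 with DESeq2 (C3ar1 in addition) and 3 to 5 when 1 animal was left out. The pathway list gave 13 calls in A + T vs. T and 11 in A + T vs. S at the thresholds of the study, and 4 to 7 and 2 to 6 when 1 animal was left out, lowest without animal 11 of T and without animal 2 or 3 of S. With the mean log2 CPM of the macrophage markers in place of their sum, the log2 ratios of A + T vs. S were −0.16 for C1qa, −0.0252 for C1qb and −0.0461 for C1qc, below 0 instead of above. The following changed sign with 1 animal left out, and none of them was called in the full fit. The log2 fold change of C1ra ran from −0.51 to 0.0690 in T vs. S, from −0.0725 to 0.60 in A + T vs. T and from −0.18 to 0.28 in A + T vs. S. That of Serping1 in A + T vs. S ran from −0.20 to 0.0025, that of C4b in A + T vs. T from −0.39 to 0.34, and that of C3 from −0.12 to 0.79 in T vs. S and from −0.41 to 0.63 in A + T vs. T. C1s1 ran from −0.21 to 0.56 in T vs. S and from −0.20 to 0.66 in A + T vs. T, Colec12 from −0.0769 to 0.11 in A + T vs. S, Cfb from −0.54 to 0.91 and Cd59a from −0.0606 to 0.0023 in A + T vs. T, and C5ar1 from −0.32 to 0.0468 and C1qbp from −0.0833 to 0.0094 in T vs. S. Of the ratios, the log2 difference of C1qc to C1qa in T vs. S ran from −0.0238 to 0.0951, C1qc to C1qb in A + T vs. S from −0.10 to 0.0398, C1qa to the macrophage list in A + T vs. S from −0.0657 to 0.0717, C1qc to that list in A + T vs. T from −0.15 to 0.0048, and C1ra and C3 to the fibroblast list in A + T vs. T from −0.54 to 0.0116 and from −0.78 to 0.0386. Other scalings gave 0.0047 for Colec12 in A + T vs. S and 0.0165 for Cd59a in A + T vs. T (upper quartile), and −0.0373 for Cfb in A + T vs. T (library totals). Without animals 12 and 22 together, C1ra in A + T vs. S was −0.18, C3 in T vs. S −0.11, C4b in A + T vs. T 0.20, C1s1 in T vs. S −0.20 and C1qbp in T vs. S 0.0175. The cause was not tested. No paired analysis was possible because the animals of different groups share no numbers in the labels.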
